A study of Homo sapiens with 18 samples.

Results

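The later stretch of erythroid differentiation, from 48 h to 5 d, was followed in WT HUDEP-2 cells. HUDEP-2 is an immortalised human line of erythroid progenitors from umbilical cord that can be driven toward red cells in culture. The comparison takes 6 of the 18 RNA-seq libraries of the series, chosen by their labels alone: 3 of WT cells differentiated for 5 d and 3 of WT cells differentiated for 48 h. No gene had been edited in these cells, and both groups were grown in the same differentiation procedure as far as the labels tell. The remaining 12 libraries are 3 of undifferentiated WT cells and 9 of HBBko cells, HUDEP-2 cells labelled as a knockout of the adult beta-globin gene HBB, at 5 d, 48 h and undifferentiated. HBB RNA was not absent from the libraries labelled HBBko: it was at 69004, 70764 and 72650 scaled TPM at 5 d and 22102, 22926 and 24265 at 48 h, below every WT library of the same stage. The undifferentiated and HBBko libraries are otherwise used only where a gene is followed from its undifferentiated level or where the WT change is set against the HBBko change. The labels say that cells were grown and differentiated in triplicate, but not whether the 3 cultures of a group were started independently, so p values measure the spread between these libraries, which may be technical. HUDEP-2 is 1 line, so the libraries do not sample different donors. The deposited columns name the lines only as wen and thal, which were read as WT and HBBko from those names, so every difference between the lines rests on that reading.

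Terminal erythroid differentiation turns a dividing progenitor into a cell filled with haemoglobin. Haemoglobin joins alpha-like and beta-like globin chains with heme, so globin transcripts, heme enzymes and iron carriers accumulate together, while a membrane skeleton of spectrin, ankyrin and band 3 is built. Ribosome production, mitochondria and most other cell contents are lost, through the ubiquitin system and autophagy, and the nucleus condenses before it is expelled. ATF4, a transcription factor made when initiation factor eIF2alpha is phosphorylated, switches on genes of amino acid supply and stress defence, and in erythroid cells one eIF2alpha kinase, HRI, responds to low heme.

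Expression is given as scaled TPM, a measure of transcript abundance per unit of transcript length that the authors had also scaled between libraries. The sums over all genes were 1456800 to 1508340 in WT 5 d libraries and 916576 to 984482 in WT 48 h libraries. Signal outside the globin genes summed to 709465 to 723706 at 5 d and 731756 to 741375 at 48 h. Of the 35616 genes listed, 11040 had at least 1 scaled TPM in at least 3 of the 6 libraries and were tested with limma on log2(scaled TPM + 1). A gene is said to have risen or fallen where its Benjamini-Hochberg adjusted p was under 0.05 and its log2 fold change (5 d over 48 h) at least 1 in size. Group means are given ± SD (n = 3 libraries) and log2 fold changes ± SE. The fold change understates the change of genes near 1 scaled TPM. Read counts were not used here, so depth is unknown and precision comes from the replicate libraries alone.

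By that rule 1157 genes rose (10.5% of those tested) and 2126 fell (19.3%), together 29.7%. The adjusted p alone was passed by 3672 higher genes (33.3%) and 5741 lower genes (52%), together 85.3%, and in 86.8% of the tested genes the 3 libraries of 5 d did not overlap the 3 libraries of 48 h. Since most genes passed the p value, the description rests on the size of the change. The median log2 fold change of all tested genes was -0.22. The counts depend on the scale. When every library was instead brought to the same sum, so that the globin gain lowers everything else, 466 genes rose and 4313 fell, and the median moved to -0.77. The share of rising genes among those called was then 9.75%, against 35.2% on the deposited scale and 49.9% after quantile normalization. Rescaling without the globins gave 1218 risen and 2000 fallen genes and a median of -0.18. For each gene group below, the count under equal library sums is added where it differs by more than 1.5 times. Under equal sums 4.22% of all tested genes rose and 39.1% fell, the shares beside which those counts stand.

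Within groups the libraries correlated at 0.9955 to 0.9958 at 5 d and 0.9959 to 0.9978 at 48 h (Pearson, across genes, which are not independent). WT 48 h replicate 3 lay nearer to the 5 d libraries than its partners did: it was the highest of the 48 h libraries for 933 of the 1157 risen genes (80.6%) and the lowest for 1762 of the 2126 fallen genes (82.9%), against 33.8% and 46.7% of all tested genes. Without it, 1219 genes rose and 2207 fell, 1145 and 2105 of them among those called with it. The labelled cell type held: KLF1, an erythroid transcription factor, was at 1326 to 1429 scaled TPM in WT 5 d libraries and 633 to 716 in WT 48 h libraries. Of the markers of other lineages most were too low to be tested, but a few were expressed, and CD68, TUBB1 and PRG2 rose, by 1.08, 2.20 and 1.18 on the log2 scale. The CD68 and PRG2 calls were lost with equal sums (0.52 and 0.58) and with a pseudocount of 5 (0.68 and 0.90), and that of CD68 also without WT 5 d replicate 2 (0.97). PF4 (platelets) and CD3E (T cells) were listed at 0 in all 6 libraries, and the 12 lymphoid markers together summed to 0.553 to 0.923 at 5 d and 0.389 to 0.484 at 48 h. The 14 myeloid markers summed to 8.47 to 12.3 at 5 d and 4.60 to 5.25 at 48 h, led by CD68, a lysosomal protein. The 14 megakaryocyte markers summed to 26.0 to 29 at 5 d and 8.13 to 10.6 at 48 h, led by TUBB1, a beta-tubulin of platelets, and 4 of them were at 0 in all 6 libraries. The 12 mast cell, basophil and eosinophil markers summed to 23.3 to 24.9 at 5 d and 15.7 to 17.6 at 48 h, led by PRG2. The 12 stromal and endothelial markers summed to 19.9 to 23.4 at 5 d and 111 to 124 at 48 h, nearly all of it EPCAM, an epithelial adhesion gene, which fell by 2.41 on the log2 scale. The part of these markers in the results was not tested.

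Globin transcripts took a larger share of the libraries at 5 d. All globins together made up 51.3%, 50.5% and 52.1% of the signal in WT 5 d libraries, against 20.2%, 20.3% and 24.7% in WT 48 h libraries. Every 5 d library lay above every 48 h library, by 29.6 percentage points on average (51.3% ± 0.793 at 5 d and 21.7% ± 2.58 at 48 h, SD, n = 3 each; two-sided exact permutation test, p = 0.1, the smallest that 3 against 3 allows, 0.117 adjusted over 14 shares). Between 3 and 4 genes held 50% of the signal at 5 d, and 74 to 93 genes at 48 h. In shares of bulk RNA, more cells making globin, more globin RNA per cell and less other RNA per cell cannot be told apart.

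**Figure D1:**
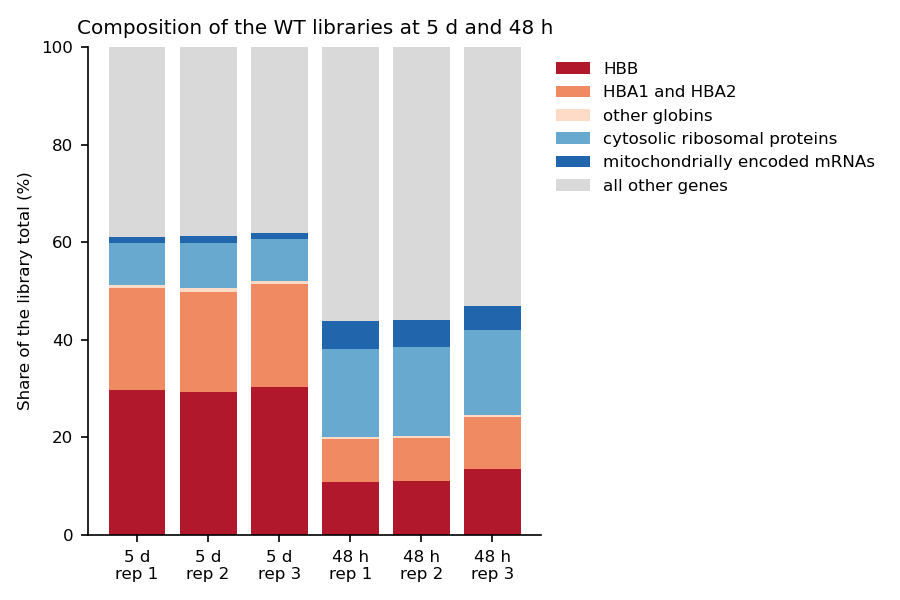
Share of each WT library's total scaled TPM taken by HBB, by HBA1 with HBA2, by the other globins, by cytosolic ribosomal protein genes, by mitochondrially encoded mRNAs and by all other genes, as stacked bars with the 5 d libraries left and the 48 h libraries right. The globin parts reach 50.5% to 52.1% at 5 d and 20.2% to 24.7% at 48 h, and 48 h replicate 3 has the highest globin share of its group.

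Of the 10 globin genes 7 rose (70%, against 10.5% of all tested genes) and 1 fell (10%, against 19.3%). Their median log2 fold change was 1.28 (4 rose with equal sums). HBB, the adult beta chain, at chr11:5225464-5229395 (hg38, minus strand), reached 431427, 427628 and 458719 scaled TPM in WT 5 d libraries, against 99196, 103106 and 132741 in WT 48 h libraries. All 5 d values exceeded all 48 h values, and the log2 fold change was 1.99 ± 0.17 (SE; limma adjusted p = 5e-06). HBA1 and HBA2, near-identical alpha-globin genes between which reads can be split arbitrarily, were high at both times. HBA1 was at 161304 ± 2643 scaled TPM at 5 d and 49629 ± 7200 at 48 h (log2 fold change 1.71), and HBA2 at 146819 ± 4489 at 5 d and 39796 ± 6535 at 48 h (log2 fold change 1.90). The steepest riser was HBD, the minor adult delta chain, with 538, 549 and 540 scaled TPM at 5 d and 62.7, 67.5 and 94.4 at 48 h. Its log2 fold change of 2.86 ± 0.13 left HBD far below HBB in level at both times.

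The fetal, embryonic and minor alpha-like genes went different ways. HBG2, a fetal gamma chain, was at 4103, 3320 and 5582 scaled TPM in WT 5 d libraries and 1764, 1994 and 2763 in WT 48 h libraries. Its groups did not overlap, but its log2 fold change of 0.99 ± 0.21 stayed just under the size rule. HBG1, the near-identical second gamma gene, passed it at 1.01 ± 0.17 and failed it at 0.82 without 5 d replicate 3, at 0.92 without 48 h replicate 1 and at 0.96 without 48 h replicate 2. The share of the whole signal taken by HBG1 and HBG2 together did overlap between the groups. It was 0.315% ± 0.0771 at 5 d and 0.246% ± 0.0480 at 48 h (two-sided exact permutation test, p = 0.2). As a share of all beta-like globin, gamma made up 1.04% ± 0.231 at 5 d and 2.03% ± 0.147 at 48 h, with no overlap between the groups. The ratio of the summed HBA1 and HBA2 signal, without the other alpha-like genes, to beta-like signal was 0.694 ± 0.0128 at 5 d and 0.785 ± 0.0222 at 48 h (SD, n = 3 each). HBM and HBQ1, minor members of the alpha cluster, rose by log2 fold changes of 1.49 and 1.06. HBZ, the embryonic zeta chain at chr16:152687-154503, was the only globin that fell. It was at 16.0, 19.2 and 18.2 scaled TPM at 5 d and 72.9, 66.6 and 73.9 at 48 h, and in undifferentiated WT cells it averaged 19.9, so that 48 h was its highest stage. HBE1, embryonic epsilon, was at 1.94 ± 0.192 scaled TPM at 5 d and 1.33 ± 0.137 at 48 h. Its groups did not overlap, and its log2 fold change of 0.33 passed the adjusted p (limma, 0.0075) and not the size rule, and turned to -0.06 under equal sums.

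Away from the globins, the steepest risers included TRIB3, GDF15, both arginases and HMOX1. They are taken as the 10 largest increases among called genes with a mean of at least 10 scaled TPM in 1 group. Only genes whose 5 d and 48 h libraries did not overlap were eligible. TRIB3, a pseudokinase switched on by ATF4 that dampens ATF4 and AKT signalling, at chr20:362835-397559, had 387, 353 and 392 scaled TPM in WT 5 d libraries, against 6.51, 5.87 and 11.7 in WT 48 h libraries. Its log2 fold change of 5.44 ± 0.20 (adjusted p = 4.2e-08) was the largest among the tested genes, and undifferentiated cells had held 20.6. ARG2 and ARG1, the mitochondrial and cytosolic arginases, rose by 5.14 and 4.05 on the log2 scale: ARG2 was at 195 ± 24.9 scaled TPM at 5 d and 4.68 ± 1.59 at 48 h, and ARG1 at 67.5 ± 4.20 at 5 d and 3.25 ± 1.23 at 48 h. ASS1, which makes argininosuccinate on the way to arginine, reached 79.2, 72.4 and 87.5 at 5 d, against 2.69, 2.94 and 6.42 at 48 h.

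GDF15, a secreted stress hormone of the TGF-beta family that erythroblasts release, was the most abundant of these 10 genes. It had 921, 950 and 1014 scaled TPM in WT 5 d libraries and 43.8, 43.9 and 75 in WT 48 h libraries, a log2 fold change of 4.17 ± 0.18. H1F0, the linker histone H1.0 of cells that leave the cycle, rose by 4.12 and HMOX1, the enzyme that breaks heme down, by 3.89. HMOX1 was at 78.4, 106 and 110 scaled TPM at 5 d, against 6.11, 5.59 and 5.22 at 48 h. TMCC2 rose by 4.86, MEF2B, a MADS-box transcription factor, by 4.46, and ENPP7P8, annotated as a pseudogene whose reads may come from copies, by 3.89. That the 5 d and 48 h libraries did not overlap was part of the choice of these 10 genes, and held for 86.8% of all tested genes.

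**Figure D2:**
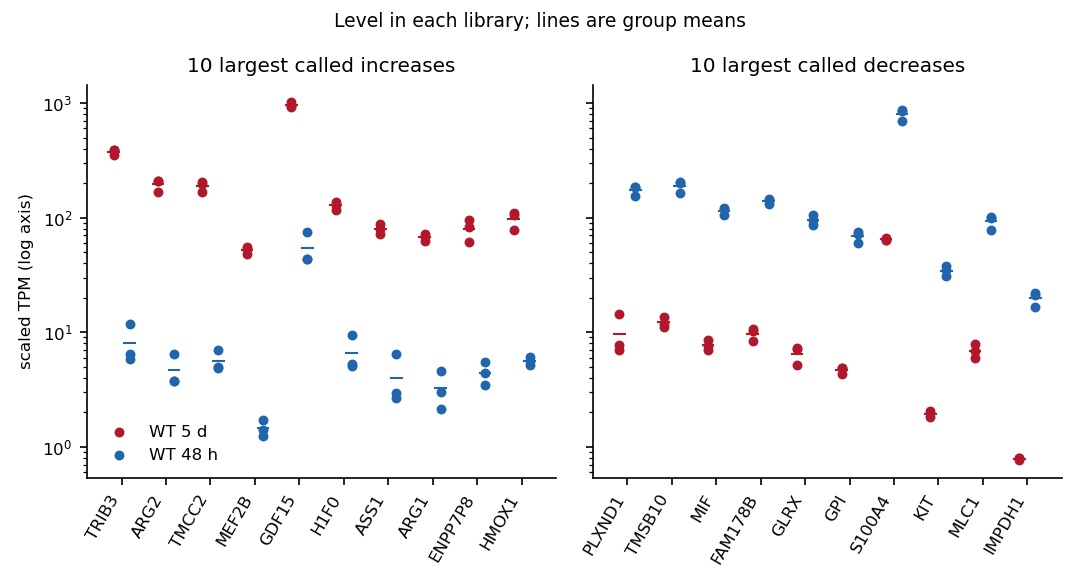
Scaled TPM on a log axis in each WT library for the 10 largest called increases (left panel) and the 10 largest called decreases (right panel), 5 d points left of 48 h points and horizontal lines at the group means. Only genes whose groups do not overlap were taken. TRIB3 stands at 377 against 8.04 and PLXND1 at 9.75 against 175.

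The 10 largest decreases included an axon guidance receptor, the stem cell factor receptor and several metabolic enzymes. PLXND1, a receptor for semaphorins, at chr3:129555175-129606818 (minus strand), had 7.66, 14.5 and 7.04 scaled TPM in WT 5 d libraries and 184, 186 and 155 in WT 48 h libraries. It fell by 4.10 on the log2 scale (SE 0.22), with 5 d replicate 2 higher than its partners. S100A4, a calcium-binding protein, was the most abundant of the 10, at 65.0 ± 1.91 scaled TPM at 5 d and 805 ± 98.4 at 48 h. TMSB10, a thymosin that binds actin monomers, fell by 3.86, MIF, a cytokine, by 3.74, GLRX, a glutaredoxin, by 3.70, and GPI, the second enzyme of glycolysis, by 3.61. IMPDH1, which opens guanine nucleotide synthesis, fell by 3.54. KIT, the receptor for stem cell factor, was at 1.84, 1.99 and 2.04 scaled TPM at 5 d, against 35.1, 37.6 and 31.0 at 48 h. Undifferentiated WT cells had 174 of KIT, so its level was lower at each later stage. GLRX did not follow that course, with 46.7 scaled TPM in undifferentiated cells, 96.3 at 48 h and 6.52 at 5 d. FAM178B and MLC1, a membrane protein best known from astrocytes, fell by 3.72 and 3.58.

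**Figure D3:**
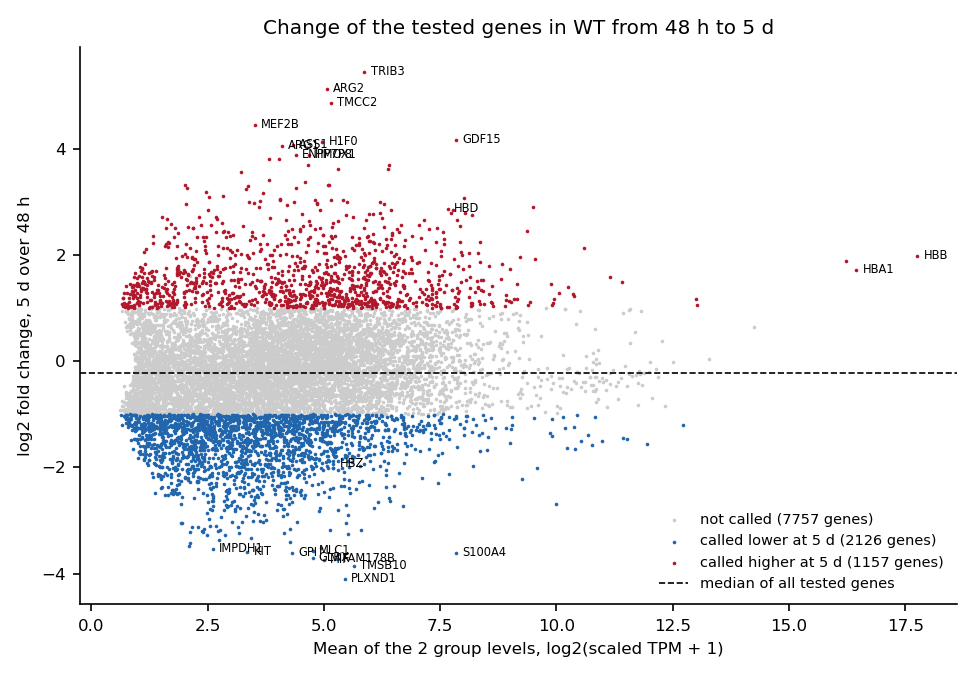
Log2 fold change (WT 5 d over 48 h) of the 11040 tested genes against the mean of both group levels on the log2(scaled TPM + 1) scale, with risen genes in red, fallen genes in blue and the dashed line at the median of -0.22. The globins HBB, HBA1 and HBA2 (not labelled) lie at the right edge, and the named extremes lie at middle levels.

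Targets of ATF4 and of the amino acid response had the highest median change of the lists with at least 10 tested members. Of 33 listed members 30 passed the filter on low values, 24 rose (80%, against 10.5% of all tested genes) and 2 fell, with a median log2 fold change of 2.03. The count of risen members was 20 with equal sums. CHAC1, which cleaves glutathione, had 315, 283 and 310 scaled TPM in WT 5 d libraries and 21.7, 18.5 and 28.2 in WT 48 h libraries (log2 fold change 3.69 ± 0.13). SESN2, a leucine-sensing brake on mTORC1, was at 137 ± 6.01 at 5 d and 10.4 ± 2.77 at 48 h, and DDIT4, another brake on mTORC1, at 1966 ± 56.1 at 5 d and 264 ± 56.9 at 48 h. The stress transcription factors rose too: ATF3 by 3.38, DDIT3 (CHOP) by 2.99, CEBPB by 2.96 and CEBPG by 2.65.

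The enzymes and carriers of amino acid supply were part of the rise. PHGDH, the first enzyme of serine synthesis, was at 19.3, 17.8 and 21.8 scaled TPM at 5 d and 0.894, 1.15 and 2.32 at 48 h. ASNS, asparagine synthetase, was at 631, 624 and 620 at 5 d and 153, 161 and 203 at 48 h. The large neutral amino acid exchanger SLC7A5 and its partner chain SLC3A2 rose side by side, by 2.05 and 2.04. The last enzyme of serine synthesis, PSPH, went the other way, to 6.02 ± 0.327 scaled TPM at 5 d, against 19.5 at 48 h, as did ALDH18A1 of proline synthesis, by -1.57. ATF4 mRNA itself was at 742, 701 and 753 at 5 d and 377, 383 and 422 at 48 h. That log2 fold change of 0.89 passed the adjusted p and not the size rule.

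Of the promoters, a few are printed because the groups around them moved together: the steepest riser TRIB3, the steepest faller PLXND1, 3 ATF4 targets that hold a C/EBP-ATF composite motif, and the red cell membrane gene TSPO2 with a GATA motif. The sequences are RefSeq's (GRCh38.p14), the 250 bases before a start site, 5′ to 3′ on the gene's strand. They lie at chr20:381045-381294 (plus) for TRIB3, chr3:129606677-129606926 (minus) for PLXND1, chr15:40953221-40953470 (plus) for CHAC1, chr1:212565157-212565406 (plus) for ATF3, chr7:97872409-97872658 (minus) for ASNS and chr6:41042217-41042466 (plus) for TSPO2. Capitals mark any match on either strand to AGATAA (bound by GATA factors), CACCC (bound by KLF factors) or TGATGNAA (C/EBP-ATF composite sites), the last of which was chosen after values were seen. Where a gene has several start sites, one with the motif is shown, or else the first.
TRIB3: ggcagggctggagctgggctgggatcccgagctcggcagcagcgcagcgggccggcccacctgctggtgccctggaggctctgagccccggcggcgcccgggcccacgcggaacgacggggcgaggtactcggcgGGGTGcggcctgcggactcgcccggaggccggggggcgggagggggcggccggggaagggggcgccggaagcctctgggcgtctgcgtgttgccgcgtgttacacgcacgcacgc
PLXND1: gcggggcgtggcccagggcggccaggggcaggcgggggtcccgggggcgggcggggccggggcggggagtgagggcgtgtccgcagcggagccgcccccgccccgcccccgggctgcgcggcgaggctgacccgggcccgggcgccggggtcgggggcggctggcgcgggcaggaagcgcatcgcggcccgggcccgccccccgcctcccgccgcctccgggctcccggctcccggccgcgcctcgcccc
CHAC1: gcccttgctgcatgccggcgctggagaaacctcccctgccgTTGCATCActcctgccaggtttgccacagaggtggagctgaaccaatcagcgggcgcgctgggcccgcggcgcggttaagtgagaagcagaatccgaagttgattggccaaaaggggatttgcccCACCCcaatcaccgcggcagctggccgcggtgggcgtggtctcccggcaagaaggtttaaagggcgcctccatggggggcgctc
ATF3: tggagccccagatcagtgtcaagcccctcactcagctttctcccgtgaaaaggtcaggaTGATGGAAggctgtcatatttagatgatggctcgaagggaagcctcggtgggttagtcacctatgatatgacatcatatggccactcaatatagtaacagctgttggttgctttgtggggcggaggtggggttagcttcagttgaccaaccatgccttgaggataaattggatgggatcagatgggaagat
ASNS: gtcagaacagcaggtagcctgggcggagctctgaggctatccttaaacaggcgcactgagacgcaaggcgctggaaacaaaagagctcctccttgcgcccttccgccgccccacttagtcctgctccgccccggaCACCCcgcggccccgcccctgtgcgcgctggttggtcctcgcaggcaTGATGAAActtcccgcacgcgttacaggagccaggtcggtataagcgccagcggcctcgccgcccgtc
TSPO2: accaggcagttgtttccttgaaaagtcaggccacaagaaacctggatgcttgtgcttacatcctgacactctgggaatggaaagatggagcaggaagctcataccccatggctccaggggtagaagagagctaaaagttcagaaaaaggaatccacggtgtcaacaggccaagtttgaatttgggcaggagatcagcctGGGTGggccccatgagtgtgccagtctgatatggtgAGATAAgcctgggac

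Counted back from the last base printed as -1, the leftmost base of the TGATGNAA match lay at -209 in CHAC1, -191 in ATF3 and -68 in ASNS. In CHAC1 that match was on the strand opposite to the one printed. The leftmost base of AGATAA lay at -15 in TSPO2. TRIB3 held none in this window besides CACCC at -115, and PLXND1 held none of the 3. TGATGNAA was in 6 of the 43 start sites of the ATF4 list (14%), against 1.48% of the 12032 start sites of tested genes and 3.14% of all 35116. Those 43 start sites came from 27 of the 33 members, so a gene can be counted more than 1 time. Among the start sites of all risen genes the motif was in 27 of 1249 (2.16%). AGATAA was in 12 of the 48 start sites of the red cell membrane list (25%), against 4.85% of tested genes and 9.17% of all. CACCC is short and was in 58.2% of start sites of tested genes. A match describes letters and not a bound site.

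Heme and iron genes rose in part. Of 22 tested heme genes 9 rose (40.9%, against 10.5% of all tested genes) and 3 fell (13.6%, against 19.3%), median 0.87. With equal sums 2 rose and 5 fell, and 5 fell without 48 h replicate 3. ALAS2, the erythroid rate-limiting enzyme of heme synthesis, was at 1551, 1560 and 1576 scaled TPM in WT 5 d libraries and 510, 536 and 685 in WT 48 h libraries. CPOX, coproporphyrinogen oxidase, rose by 1.65 and FECH, which inserts iron, by 1.10, while BLVRA, biliverdin reductase A, fell by 1.23. Of 21 tested iron genes 7 rose (33.3%) and 3 fell (14.3%), median 0.54 (2 rose and the median was -0.10 with equal sums). ERFE, the hormone erythroferrone by which erythroblasts lower hepcidin, was at 681, 684 and 709 at 5 d and 185, 183 and 233 at 48 h. NCOA4, which delivers ferritin to autophagy, and SLC25A37 (mitoferrin, the mitochondrial iron importer) rose by 1.79 and 1.58, and both ferritin chains rose, FTL by 1.18 and FTH1 by 1.05. NFS1, which makes iron-sulphur clusters, fell by 2.08. The transferrin receptor TFRC was at 1876 ± 29.3 at 5 d and 1814 ± 78.3 at 48 h (log2 fold change 0.05, adjusted p = 0.33).

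Of 36 red cell membrane and skeleton genes 20 rose (55.6%, against 10.5% of all tested genes) and 1 fell (2.78%, against 19.3%). Their median was 1.05 (9 rose with equal sums). SLC4A1, the anion exchanger band 3, was at 3242, 3182 and 3199 scaled TPM in WT 5 d libraries and 637, 643 and 940 in WT 48 h libraries. SLC2A1, the glucose carrier GLUT1, was at 1545 ± 75.9 at 5 d and 283 ± 45.9 at 48 h, and TSPO2 at 188 ± 7.78 at 5 d and 31.9 ± 6.07 at 48 h. The beta-spectrin gene SPTB rose by 1.54, ankyrin ANK1 by 1.17 and stomatin STOM by 1.92. RHD and RHCE, Rh blood group genes whose reads can be split between them, rose by 2.20 and 2.34. The beta-adducin gene ADD2 was the exception, at 214, 240 and 218 scaled TPM at 5 d and 604, 604 and 591 at 48 h, and it fell by 1.42 on the log2 scale.

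The erythroid transcription factors divided. Of 24 tested members of that list with erythropoietin signalling, 12 rose (50%) and 2 fell (8.33%), against 10.5% and 19.3% of all tested genes. The median was 1.03 (4 rose with equal sums). FOXO3, which drives late erythroid genes, was at 255, 229 and 243 scaled TPM at 5 d and 37.2, 37.8 and 45.9 at 48 h. E2F2 rose by 2.39, KLF3 by 1.90, NFE2 by 1.55, the erythropoietin receptor EPOR by 1.38 and KLF1 by 1.06. GATA1 was at 316 ± 10.4 at 5 d and 256 ± 7.68 at 48 h, a log2 fold change of 0.31 under the size rule. STAT5A, which acts below EPOR, fell to 8.39, 10.3 and 8.05 scaled TPM at 5 d, against 53.9, 54.9 and 47.0 at 48 h, whereas its relative STAT5B had a log2 fold change of 0.82. LDB1, a partner of GATA1, fell by 1.20.

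Progenitor genes were mixed. Of 20 listed, 10 passed the filter, 5 fell (50%, against 19.3% of all tested genes) and none rose under any scaling tried, and CD34 was at 0.0480 scaled TPM or less in all 6 libraries. MYB was at 9.99, 11.2 and 10.4 scaled TPM in WT 5 d libraries and 79.1, 83.6 and 69.6 in WT 48 h libraries. MYC was at 63.2 ± 1.65 at 5 d and 295 ± 16.3 at 48 h, and RUNX1 and CDK6 fell by 1.67 and 1.64. LYL1, a bHLH transcription factor and the most abundant member at 5 d, was higher there, at 273, 289 and 290 scaled TPM, against 182, 181 and 197 at 48 h, and CD44, an adhesion receptor, had 60.8 ± 1.72 at 5 d and 48.0 ± 1.97 at 48 h. Their log2 fold changes of 0.60 and 0.33 passed the adjusted p and not the size rule. IKZF1 had 67.5 ± 3.15 at 5 d and 66.6 ± 2.47 at 48 h (adjusted p = 0.74). GATA2 had 36.1 ± 6.03 at 5 d and 31.5 ± 1.12 at 48 h (adjusted p = 0.15).

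**Figure D4:**
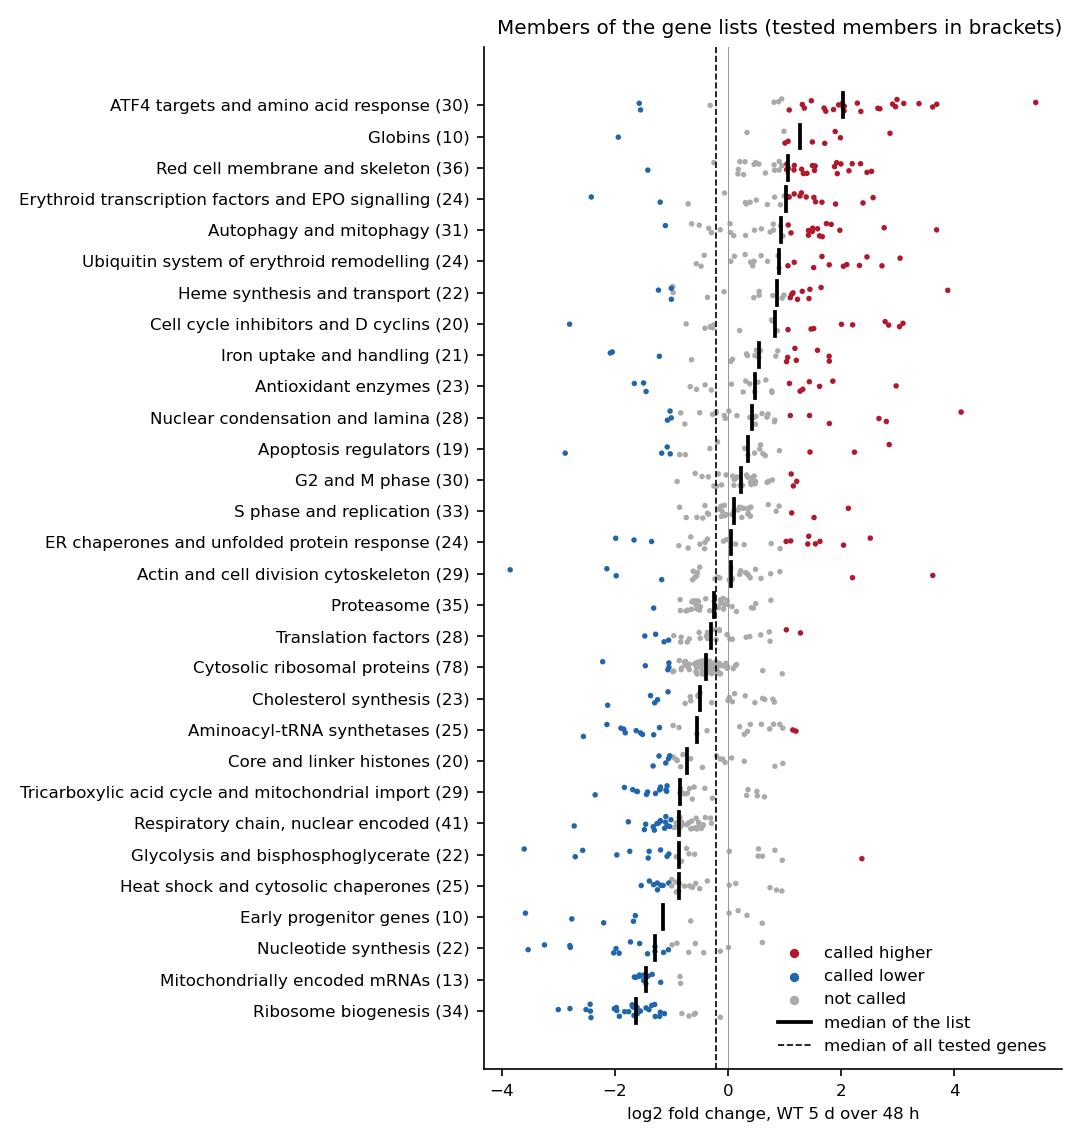
Log2 fold change (WT 5 d over 48 h) of every tested member of the gene lists with at least 10 tested members, 1 list per row ordered by its median (black bar), with risen members red, fallen members blue and others grey. The dashed line is the median of all tested genes, -0.22. ATF4 targets (median 2.03) and ribosome biogenesis (median -1.62) stand at the ends.

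Many ubiquitin and autophagy genes rose. In the ubiquitin list 11 of 24 rose (45.8%, against 10.5% of all tested genes) and none fell. Its median was 0.89 (8 rose and 3 fell with equal sums). UBE2H, a ubiquitin-conjugating enzyme of maturing erythroblasts, was at 115, 87.6 and 102 scaled TPM at 5 d and 10.2, 11 and 13.1 at 48 h. The ubiquitin ligases TRIM10, SIAH2 and TRIM58 rose by 2.72, 2.32 and 2.10. In the autophagy list 14 of 31 rose (45.2%) and 1 fell (3.23%), median 0.93 (7 rose with equal sums). GABARAPL1, an ATG8 protein of the autophagosome membrane, was at 89.0, 86.8 and 92.7 at 5 d and 5.16, 6.58 and 6.38 at 48 h. The autophagy-initiating kinase ULK1 rose by 2.76 and its partner RB1CC1 by 1.98. BNIP3L (NIX), the receptor that clears mitochondria from reticulocytes, had a log2 fold change of 0.80 under the size rule, and its relative BNIP3 fell by 1.11. Of 35 proteasome genes 1, PSME3, fell (2.86%, against 19.3% of all tested genes) and none rose, median -0.24. With equal sums 16 fell, where 39.1% of all tested genes fell.

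Nuclear genes and cell cycle genes did not move as one. Of 28 tested nuclear condensation and lamina genes 6 rose (21.4%, against 10.5% of all tested genes) and 3 fell (10.7%, against 19.3%), median 0.42. The median was -0.22 with equal sums, where 6 fell. XPO7, a nuclear exporter of erythroblasts, was at 613, 484 and 579 scaled TPM in WT 5 d libraries and 76.8, 76.4 and 83.9 in WT 48 h libraries, and RIOK3 rose by 2.67. Lamin genes LMNB1 and LMNA fell by 1.00 and 1.03. S phase genes gave 3 risen and none fallen of 33, and G2 and M phase genes 3 risen and none fallen of 30, with medians of 0.10 and 0.23, and their shares of risen members (9.09% and 10%) lay near the 10.5% of all tested genes. Under equal sums both medians turned negative, to -0.54 and -0.41, with 5 and 3 fallen members. The risen calls of NUSAP1, MKI67 and KIF23 (G2 and M phase) were lost there. Those of CCNE2 and RRM2 (S phase) were lost too, while E2F1 kept its call. The replication clamp PCNA was at 428, 416 and 424 at 5 d and 327, 327 and 340 at 48 h, and the S phase regulator E2F1 rose by 2.13, CCNE2 by 1.52 and the proliferation marker MKI67 by 1.15. Inhibitors rose beside them. Of 20 tested inhibitors and D cyclins 9 rose (45%, against 10.5% of all tested genes) and 1 fell (5%, against 19.3%), median 0.82. CDKN1A (p21) was at 15.5, 14.4 and 17.5 scaled TPM at 5 d and 1.04, 0.589 and 1.32 at 48 h. CDKN2B and CDKN2D, inhibitors of the CDK4 and CDK6 kinases, rose by 3.03 and 2.84, CDKN1B (p27) by 1.47, and CCND1 fell by 2.80. Replication-dependent histones gave 5 fallen of 20 tested (25%, against 19.3% of all tested genes) and none risen. The fallen count was 11 with equal sums, 9 with a pseudocount of 0.1, 0 with a pseudocount of 5, 3 without 48 h replicate 3 and 2 without 5 d replicate 1. Their summed share of the signal outside the globins overlapped between the groups, at 0.0222% ± 0.00230 at 5 d and 0.0251% ± 0.00357 at 48 h (two-sided exact permutation test, p = 0.3). These mRNAs mostly lack poly(A) tails.

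Ribosome biogenesis genes fell broadly, while most ribosomal protein genes stayed under the size rule. Of 34 ribosome biogenesis genes 29 fell (85.3%, against 19.3% of all tested genes) and none rose, with a median log2 fold change of -1.62. RRP9, a component of the U3 particle that processes ribosomal RNA, was at 2.85, 3.38 and 3.76 scaled TPM in WT 5 d libraries and 36.4, 34.9 and 30.0 in WT 48 h libraries. NPM1, nucleophosmin, was at 360, 399 and 379 at 5 d and 1624, 1602 and 1387 at 48 h. POLR1A and POLR1B, the catalytic subunits of RNA polymerase I, fell by 2.43 and 2.44, whereas its activator UBTF had a log2 fold change of -0.14. Of 78 cytosolic ribosomal protein genes 5 fell (6.41%) and none rose, median -0.40, although 43 fell with equal sums, where 39.1% of all tested genes fell. Their summed share of the signal was 8.76% ± 0.460 at 5 d and 17.8% ± 0.510 at 48 h. Outside the globins it was 18% ± 0.699 at 5 d and 22.8% ± 0.186 at 48 h. RPL23 stood apart from the family, at 273, 277 and 294 scaled TPM at 5 d and 1329, 1352 and 1258 at 48 h (log2 fold change -2.22 ± 0.04), and RPS26 fell by 1.46. Reads of ribosomal protein genes can be split with their many processed pseudogenes, so single members are uncertain.

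Of the other translation genes, 10 of 25 aminoacyl-tRNA synthetases fell (40%) and 2 rose (8%), against 19.3% and 10.5% of all tested genes. Their median was -0.55 (14 fell and none rose with equal sums). At an adjusted p under 0.05 alone 11 were higher and 14 lower. The summed signal of the 25 was higher at 5 d, at 3410 to 3434 scaled TPM, against 2891 to 2975 at 48 h. The fallen set was led by the mitochondrial isoleucine enzyme IARS2 (-2.56) and the cytosolic valine enzyme VARS (-2.14). The risen pair was GARS and CARS, which charge glycine and cysteine tRNAs, GARS with 482 ± 4.13 scaled TPM at 5 d and 218 ± 19.8 at 48 h. Of 28 translation factors 4 fell (14.3%) and 2 rose (7.14%), both under the shares of all tested genes. With equal sums 14 fell (50%, against 39.1% of all tested genes) and none rose. EIF1, which helps select start codons, was at 1710, 1605 and 1645 at 5 d and 650, 674 and 719 at 48 h. PDCD4 fell the most of this list, by 1.47, and EIF4A1, an RNA helicase, fell by 1.28. The elongation factor EEF1A1 had 10066 ± 597 at 5 d and 9822 ± 263 at 48 h (adjusted p = 0.63).

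Mitochondrial genes fell from both genomes. Of 13 mitochondrially encoded mRNAs 11 fell (84.6%, against 19.3% of all tested genes) and none rose, median -1.46. Their share of the signal was 1.39% ± 0.0630 at 5 d and 5.44% ± 0.350 at 48 h. Outside the globins it was 2.86% at 5 d and 6.94% at 48 h. MT-ND3, a complex I subunit, was at 699, 819 and 755 scaled TPM at 5 d and 2458, 2390 and 2320 at 48 h. Of 41 nuclear respiratory chain genes 16 fell (39.0%) and none rose, median -0.87 (39 fell with equal sums, 10 with median-of-ratios scaling). All 41 had a negative log2 fold change. ATP5MC1, a c subunit gene of ATP synthase, was at 39.4, 42.5 and 36.2 at 5 d and 270, 280 and 247 at 48 h. Of 29 genes of the citric acid cycle and mitochondrial import 14 fell (48.3%) and none rose (23 fell with equal sums). The fallen were led by the mitochondrial chaperonin HSPE1 (-2.35). OGDH, of the 2-oxoglutarate dehydrogenase complex, had a log2 fold change of 0.64.

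Glycolysis fell in 10 of 22 tested members (45.5%, against 19.3% of all tested genes) and rose in 1 (4.55%, against 10.5%). The riser was BPGM, which makes the 2,3-bisphosphoglycerate that lowers oxygen affinity of haemoglobin. It was at 277, 256 and 276 scaled TPM in WT 5 d libraries and 46.2, 47.7 and 61.6 in WT 48 h libraries. PKLR, the pyruvate kinase gene of red cells and liver, fell to 30.8, 39.2 and 30.6 at 5 d, against 207, 208 and 194 at 48 h. LDHA fell by 2.70, LDHB by 1.97 and GAPDH by 1.08. Without 48 h replicate 2 or without 5 d replicate 2, 2 members rose. Nucleotide synthesis fell in 14 of 22 members (63.6%) and rose in none, median -1.29. NME1, a nucleoside diphosphate kinase, was at 13.8 ± 1.29 at 5 d and 140 ± 10.5 at 48 h, and CAD, which opens pyrimidine synthesis, at 5.01 ± 0.271 at 5 d and 40.9 ± 3.37 at 48 h. Of 23 cholesterol synthesis genes 5 fell (21.7%, near the 19.3% of all tested genes), led by PMVK (-2.13), and none rose. At an adjusted p under 0.05 alone 6 were higher and 13 lower. With equal sums 11 fell, where 39.1% of all tested genes fell, and 2 fell with a pseudocount of 5.

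Stress and survival genes were mixed. Of 23 tested antioxidant genes 7 rose and 3 fell, median 0.47 (-0.18 with equal sums, where 2 rose and 6 fell). SLC7A11, the cystine importer, was at 34.3, 28.6 and 29.2 scaled TPM at 5 d and 2.84, 2.61 and 3.71 at 48 h, and GCLC, the first enzyme of glutathione synthesis, rose by 1.85. The glutathione peroxidase GPX1 fell by 1.66 and the mitochondrial peroxiredoxin PRDX3 by 1.45. Of 24 endoplasmic reticulum genes 8 rose (33.3%) and 3 fell (12.5%), median 0.05 (-0.56 with equal sums, where 2 rose and 8 fell). SEL1L, an adaptor of ER-associated degradation, and XBP1, a transcription factor of the unfolded protein response, rose by 2.52 and 2.04, while the disulphide isomerases PDIA4 and PDIA6 fell by 1.99 and 1.66. Of 25 cytosolic chaperones 8 fell (32%) and none rose (20 fell with equal sums), 5 of the fallen being subunits of the CCT chaperonin. HSP90AB1 was at 298 ± 10.9 at 5 d and 867 ± 41.2 at 48 h. AHSP, which stabilises free alpha-globin, had 4997 ± 69.5 at 5 d and 2591 ± 262 at 48 h (log2 fold change 0.95, under the size rule).

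Of 19 tested apoptosis regulators 3 rose (15.8%, against 10.5% of all tested genes) and 4 fell (21.1%, against 19.3%), median 0.35 (-0.22 with equal sums). BCL2L1, whose BCL-XL protein keeps late erythroblasts alive, was at 603, 549 and 603 scaled TPM in WT 5 d libraries and 72.3, 72.1 and 98.8 in WT 48 h libraries. BBC3 (PUMA), which promotes death, rose by 2.24, and BID, which carries death receptor signals to mitochondria, fell by 2.88. Of 29 tested cytoskeletal genes 2 rose (6.90%) and 4 fell (13.8%), both under the shares of all tested genes. With equal sums 10 fell, where 39.1% of all tested genes fell. The thymosins TMSB4X and TMSB10, close relatives that bind actin monomers, moved in opposite directions. TMSB4X was at 314, 236 and 320 at 5 d and 21.5, 18.7 and 27.9 at 48 h, and TMSB10 at 11.2, 13.7 and 11.8 at 5 d and 202, 204 and 166 at 48 h. Undifferentiated WT cells had 587 of TMSB4X and 635 of TMSB10, so TMSB4X was lowest at 48 h. TMSB4X reads may be shared with pseudogenes.

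The same interval in HBBko cells shows which changes differed with the line. The difference between the WT and the HBBko change was tested in 1 limma fit over 12 libraries and 11407 genes. For 141 genes (1.24%) the WT change was the more positive by a log2 fold change of at least 1 at an adjusted p under 0.05, and for 96 genes (0.842%) the more negative. An adjusted p under 0.05 alone was reached by 4106 genes (36%). With equal sums the counts were 75 and 140, so the share more positive in WT was 34.9%, against 59.5% on the deposited scale. Among the lists, 5 of 10 globins and 8 of 20 tested histones had a more negative change in WT, and of 30 ATF4 targets 4 were more negative and 1 more positive.

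HMOX1 differed most. It was at 78.4, 106 and 110 scaled TPM in WT 5 d libraries and 6.11, 5.59 and 5.22 in WT 48 h libraries, and at 13.7, 15.2 and 10.4 in HBBko 5 d libraries and 15.6, 14.6 and 13.3 in HBBko 48 h libraries. Its WT change of 3.89 and HBBko change of -0.15 differed by 4.03 ± 0.19 (SE; limma adjusted p = 2.2e-07). CDKN1A changed by 3.09 in WT and 0.35 in HBBko cells. The fetal gene HBG2 changed by 0.99 in WT and 2.90 in HBBko cells, reaching 4335 scaled TPM in WT 5 d libraries against 2174 in WT 48 h libraries, and 46038 in HBBko 5 d libraries against 6155 in HBBko 48 h libraries. HBZ changed by -1.94 in WT and -0.19 in HBBko cells, a difference of -1.76 ± 0.17. The WT minus HBBko differences of TRIB3 (0.83), GDF15 (-0.25), PLXND1 (-0.55) and KIT (0.26) did not meet the rule, which does not show that their changes were alike.

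**Figure D5:**
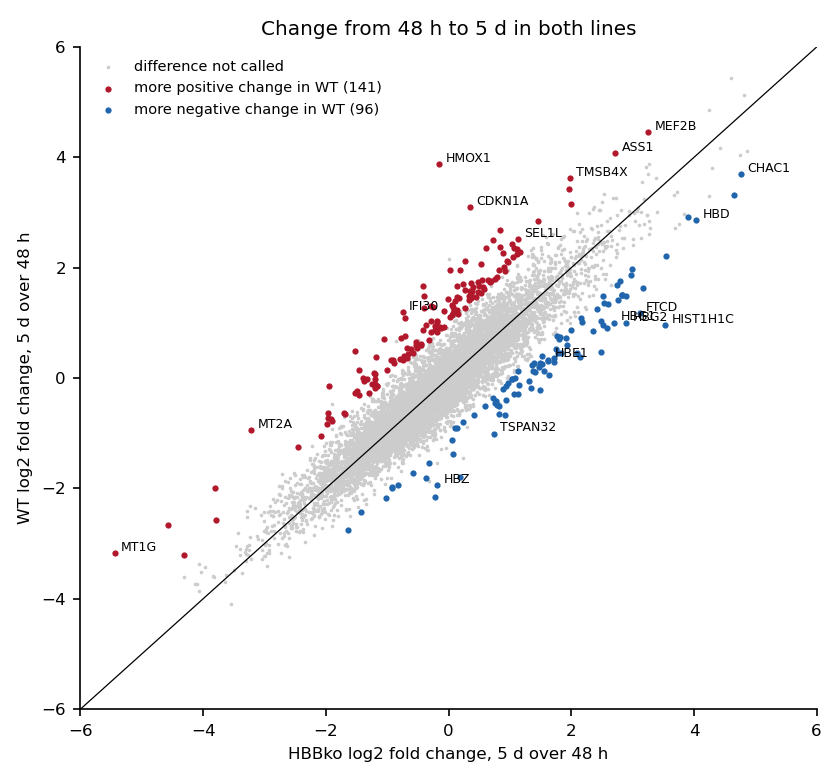
Log2 fold change from 48 h to 5 d of each tested gene in WT cells (vertical axis) against HBBko cells (horizontal axis), with genes whose change was more positive in WT in red (141), more negative in WT in blue (96) and the line of equal change in black. HMOX1 and CDKN1A lie above the cloud, the gamma globins and HIST1H1C to its right.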

How the data were processed

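Libraries were made with the TruSeq RNA v2 kit from RNeasy-purified RNA, per the labels' protocols. Per the submitters' processing notes, the build was hg38 and the tools included kallisto and sleuth, their versions not given. Values deposited by the authors are a signal for each gene symbol, TPM scaled between libraries in a step not given in the sources used here. Library sums therefore differ, and depth cannot be recovered. The planned test was kept.

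Genes reaching 1 scaled TPM in 3 or more of the 6 libraries were fitted as log2(scaled TPM + 1) with limma 3.58.1 in R 4.3.3 (lmFit, eBayes with trend, 4 residual degrees of freedom), two-sided, with Benjamini-Hochberg adjustment over all tested genes. The interaction was fitted over 12 libraries. The script was tested on simulated data. Shares were compared with exact permutation tests. Alternatives covered scaling (globin-free, equal sums, median-of-ratios, quantile), pseudocount, filter, library weights, trend, replicate block, all 18 libraries and each replicate left out.

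Of 901 symbols in 35 lists 899 were matched, 41 through an older symbol. Named genes were the globins and the 10 largest called increases and decreases with a group mean of at least 10 and no group overlap. Up to 4 called members per list and the 5 largest differences from HBBko in each direction were also named. Other members are named as examples. The members, lists and rules were chosen with earlier results of these data known, and single examples after their values were seen. Gene positions are from GENCODE v29 (hg38). The 3 per-stage comparison tables deposited by the authors were not used.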

Additional observations from a re-analysis of the deposited data

Results flagged for a closer look

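A closer look is given to the genes whose change from 48 h to 5 d differed between the lines, by the interaction test of limma (adjusted p under 0.05 and a difference of at least 1 on the log2 scale, WT change minus HBBko change). In all, 141 genes had a more positive change in WT and 96 a more negative one. No explanation was tested.

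Among the named genes, the differences above 0 were 4.03 for HMOX1, 2.74 for CDKN1A, 2.27 for MT2A, 2.27 for MT1G, 1.95 for IFI30, 1.64 for TMSB4X, 1.39 for SEL1L, 1.36 for ASS1 and 1.20 for MEF2B. The metallothioneins MT1G and MT2A, which bind zinc and copper, were lower at 5 d in both lines. MT1G was at 9.71, 7.44 and 15.4 scaled TPM in WT 5 d libraries and 114, 105 and 87.6 in WT 48 h libraries, and at 2.55, 1.65 and 1.42 in HBBko 5 d libraries and 122, 120 and 125 in HBBko 48 h libraries. IFI30, a lysosomal thiol reductase, was higher at 5 d in every WT library (58.6, 54.9 and 61.1, against 23.3, 24.2 and 26.7 at 48 h) and lower at 5 d in every HBBko library (11.7, 12.1 and 13.4, against 20.8, 21.6 and 22.1 at 48 h).

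Those below 0 were -1.08 for CHAC1, -1.17 for HBD, -1.29 for HBE1, -1.70 for HBG1, -1.75 for TSPAN32, -1.76 for HBZ, -1.91 for HBG2, -1.93 for FTCD and -2.56 for HIST1H1C. HIST1H1C, the linker histone H1.2, was at 64.5, 63.3 and 72.6 scaled TPM in WT 5 d libraries and 31.2, 29.1 and 41.7 in WT 48 h libraries, and at 322, 338 and 484 in HBBko 5 d libraries and 32.7, 28.9 and 33.2 in HBBko 48 h libraries. TSPAN32, a tetraspanin, was lower at 5 d in WT cells (23.4, 32.3 and 23.0, against 53.9, 52.4 and 52.9 at 48 h) and higher at 5 d in HBBko cells (87.0, 105 and 101, against 64.0, 56.7 and 53.2). FTCD, a folate enzyme of histidine breakdown, changed by 1.18 in WT and 3.12 in HBBko cells.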

How the results depend on the processing

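Scale and pseudocount moved the counts most. With equal library sums 466 genes rose and 4313 fell, and 75 changes were more positive in WT than in HBBko cells. With a pseudocount of 5 the counts were 752 and 1086, and 43 more positive and 28 more negative in WT. All 466 and all 752 risen genes were among the 1157. Leaving out 1 library at a time gave 1128 to 1219 risen and 2058 to 2207 fallen genes, and 126 to 156 and 80 to 107 differences between the lines. Globins rose in 3 of 10 members after quantile normalization, which gives HBB, HBA1 and HBA2 the same ranks and no change. HBE1's share of the signal differed by -1.769e-05 to 2.588e-07 percentage points when 1 library was left out, the highest without 48 h replicate 1, and its log2 fold change was -0.0605 with equal sums. The cytoskeletal list's median relative to all genes was -0.0338 after quantile normalization. HBG2 passed the size rule at 1.03 without globins and at 1.18 without 48 h replicate 3. With all genes kept, HBB missed the adjusted p (limma, 0.12) at a log2 fold change of 1.99.

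Smaller lists also moved: with median-of-ratios scaling 1 heme gene, no nuclear gene, 2 histones and 2 ribosomal proteins fell, and 1 apoptosis gene fell with a pseudocount of 5. The replicate block gave 1158 risen and 2126 fallen genes, and 141 and 98 differences between the lines. Same-numbered libraries deviated with correlations of -0.10, 0.07 and 0.01, so the numbers were not taken as pairs. All 137 named genes kept their call under the block, and with all 18 libraries in the fit. Depth is unknown, so its limit cannot be given.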
